A study of Mus musculus with 12 samples.

Results

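The coagulation and von Willebrand factor genes described here are 8 genes that control clotting at the vessel wall: Vwf, Adamts13, F3, F10, F8, Tfpi, Procr and Plat. Open chromatin had been mapped by ATAC-seq, an assay in which a transposase inserts adapters where DNA is not packed away, in MAECs, the endothelial cells lining the mouse aorta. A peak was taken as theirs when the nearest protein-coding gene span, within 100 kb on GRCm38, was 1 of the 8. The regions were thus selected on the presence of a peak call, and that presence is described here without a test. In all 47 peaks met the rule. Peaks of different groups that overlapped by at least 1 bp were joined, which gave 24 regions of 48003 in the series and brought in 2 further peaks, for 49 of 95734. Of the 47 peaks, 2 overlapped both Adamts13 and its neighbour Cacfd1.

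The ATAC-seq samples formed 4 groups of 2, each with 1 peak list. They are WDM-WDO, CDM-WDO, WDM-CDO and CDM-CDO. The M was read as the diet of the mothers and the O as that of the offspring; the labels do not expand CD and WD. Both WDO groups had WD for 4 weeks, recorded as WD again. Whether the CDM-WDO offspring had received WD before is not shown by the labels used here. Peak names carry the mark 12w in both WDO lists and 08w in both CDO lists, so the diet of the offspring cannot be told apart from whatever that mark stands for. Strain, sex and age of the animals, and how many gave cells to a sample, are not given in the sources used here. With 1 list per group no difference has a replicate check, and no p-value is given.

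Clotting at a vessel wall begins when tissue factor, encoded by F3, meets factor VII from plasma, and it runs through factor X to thrombin. Factor VIII speeds the activation of factor X and circulates bound to von Willebrand factor, a large multimer that endothelial cells store and release and that catches platelets. Endothelial cells hold clotting in check through tissue factor pathway inhibitor (Tfpi), the protein C receptor (Procr) and tissue plasminogen activator (Plat), while the protease Adamts13 trims von Willebrand factor multimers.

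RefSeq promoter sequences of GRCm38.p6 were found for 6 of the 8 genes. The 4 printed here are of genes with a peak at or near the start: F3 in every list, Procr and F10 in 2 lists, and Adamts13 in 1. Each is the 250 bases before the gene start on the plus strand, 5′ to 3′. Capitals mark AP-1 motifs (TGANTCA, the site of Fos and Jun factors) and KLF or SP1 motifs (GGGCGG), searched on both strands.
F3, chr3:121723287-121723536: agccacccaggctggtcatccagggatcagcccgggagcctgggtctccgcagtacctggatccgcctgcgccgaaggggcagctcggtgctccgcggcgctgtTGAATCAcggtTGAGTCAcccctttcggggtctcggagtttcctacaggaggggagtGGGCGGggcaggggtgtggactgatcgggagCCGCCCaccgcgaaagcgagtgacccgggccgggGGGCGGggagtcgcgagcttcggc
Procr, chr2:155750967-155751216: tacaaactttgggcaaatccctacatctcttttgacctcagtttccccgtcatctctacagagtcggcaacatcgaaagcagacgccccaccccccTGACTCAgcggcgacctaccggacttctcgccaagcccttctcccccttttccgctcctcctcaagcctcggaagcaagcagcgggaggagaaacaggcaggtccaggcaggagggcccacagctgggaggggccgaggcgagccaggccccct
F10, chr8:13037058-13037307: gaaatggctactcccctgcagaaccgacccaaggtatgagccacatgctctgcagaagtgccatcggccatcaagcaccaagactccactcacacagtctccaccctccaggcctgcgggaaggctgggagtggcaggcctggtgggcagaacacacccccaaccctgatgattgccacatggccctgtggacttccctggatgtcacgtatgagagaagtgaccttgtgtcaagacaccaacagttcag
Adamts13, chr2:26973166-26973415: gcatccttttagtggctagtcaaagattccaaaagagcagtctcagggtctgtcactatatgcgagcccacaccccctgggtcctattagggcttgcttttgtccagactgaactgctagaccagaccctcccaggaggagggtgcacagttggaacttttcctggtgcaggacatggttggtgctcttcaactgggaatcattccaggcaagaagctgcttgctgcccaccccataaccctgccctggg
The F3 stretch held 2 AP-1 motifs, at positions −146 to −140 and −135 to −129 from the gene start, and 3 KLF or SP1 motifs. The Procr stretch held 1 AP-1 motif, at −154 to −148. Such a motif was found in 6.17% of the 21045 stretches of this length in the promoter table, and the KLF or SP1 motif in 43.1%. Also searched, on both strands, were the cyclic AMP response element TGACGTCA (in 1.94% of stretches), the NF-kB motif GGGNNTTCC (5.45%), the ETS motif CCGGAA (15.1%), the motif of GATA factors AGATAA (8.84%) and the E-box CACGTG (6.70%). No match to any of the 7 was found in the F10 and Adamts13 stretches, which says only that these letters are not there. Over the 300 bases that run on to 50 past the start, CpG dinucleotides numbered 32 in F3, 13 in Procr, 5 in F10 and 2 in Adamts13, against a median of 13.

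The lists held 26275 peaks for WDM-WDO, 18962 for CDM-WDO, 28319 for WDM-CDO and 22178 for CDM-CDO. Values below are the number of reads piled up at a peak's summit, recovered from the authors' deposited scores, and the −log10 q, the authors' own adjusted significance of a peak over its local background. A call needed 14 to 16 reads where the local background was that of the genome. At 1035 strong regions present in all 4 lists, reads above background were 1.41 times as many in WDM-WDO as in CDM-WDO, and 1.52 times as many in WDM-CDO as in CDM-CDO. These ratios were used to work out how many reads a peak of 1 list would be expected to have in another, and how many a call would then need. The expected reads carry no counting error, and they start from peaks that had passed a call in their own list. Of 10 endothelial markers, 3, 5, 5 and 3 had a peak within 1 kb of a gene start in WDM-WDO, CDM-WDO, WDM-CDO and CDM-CDO, and each had at least 1 peak in some list. In all, endothelial markers had 17, 26, 38 and 15 peaks in the same lists. Macrophage and monocyte markers had such a peak at 10, 2, 3 and 3 of 10 genes, and T and B cell markers at 5, 1, 6 and 6 of 10. In bulk material, more cells with an open site and a site more open in each cell cannot be told apart.

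**Figure D1:**
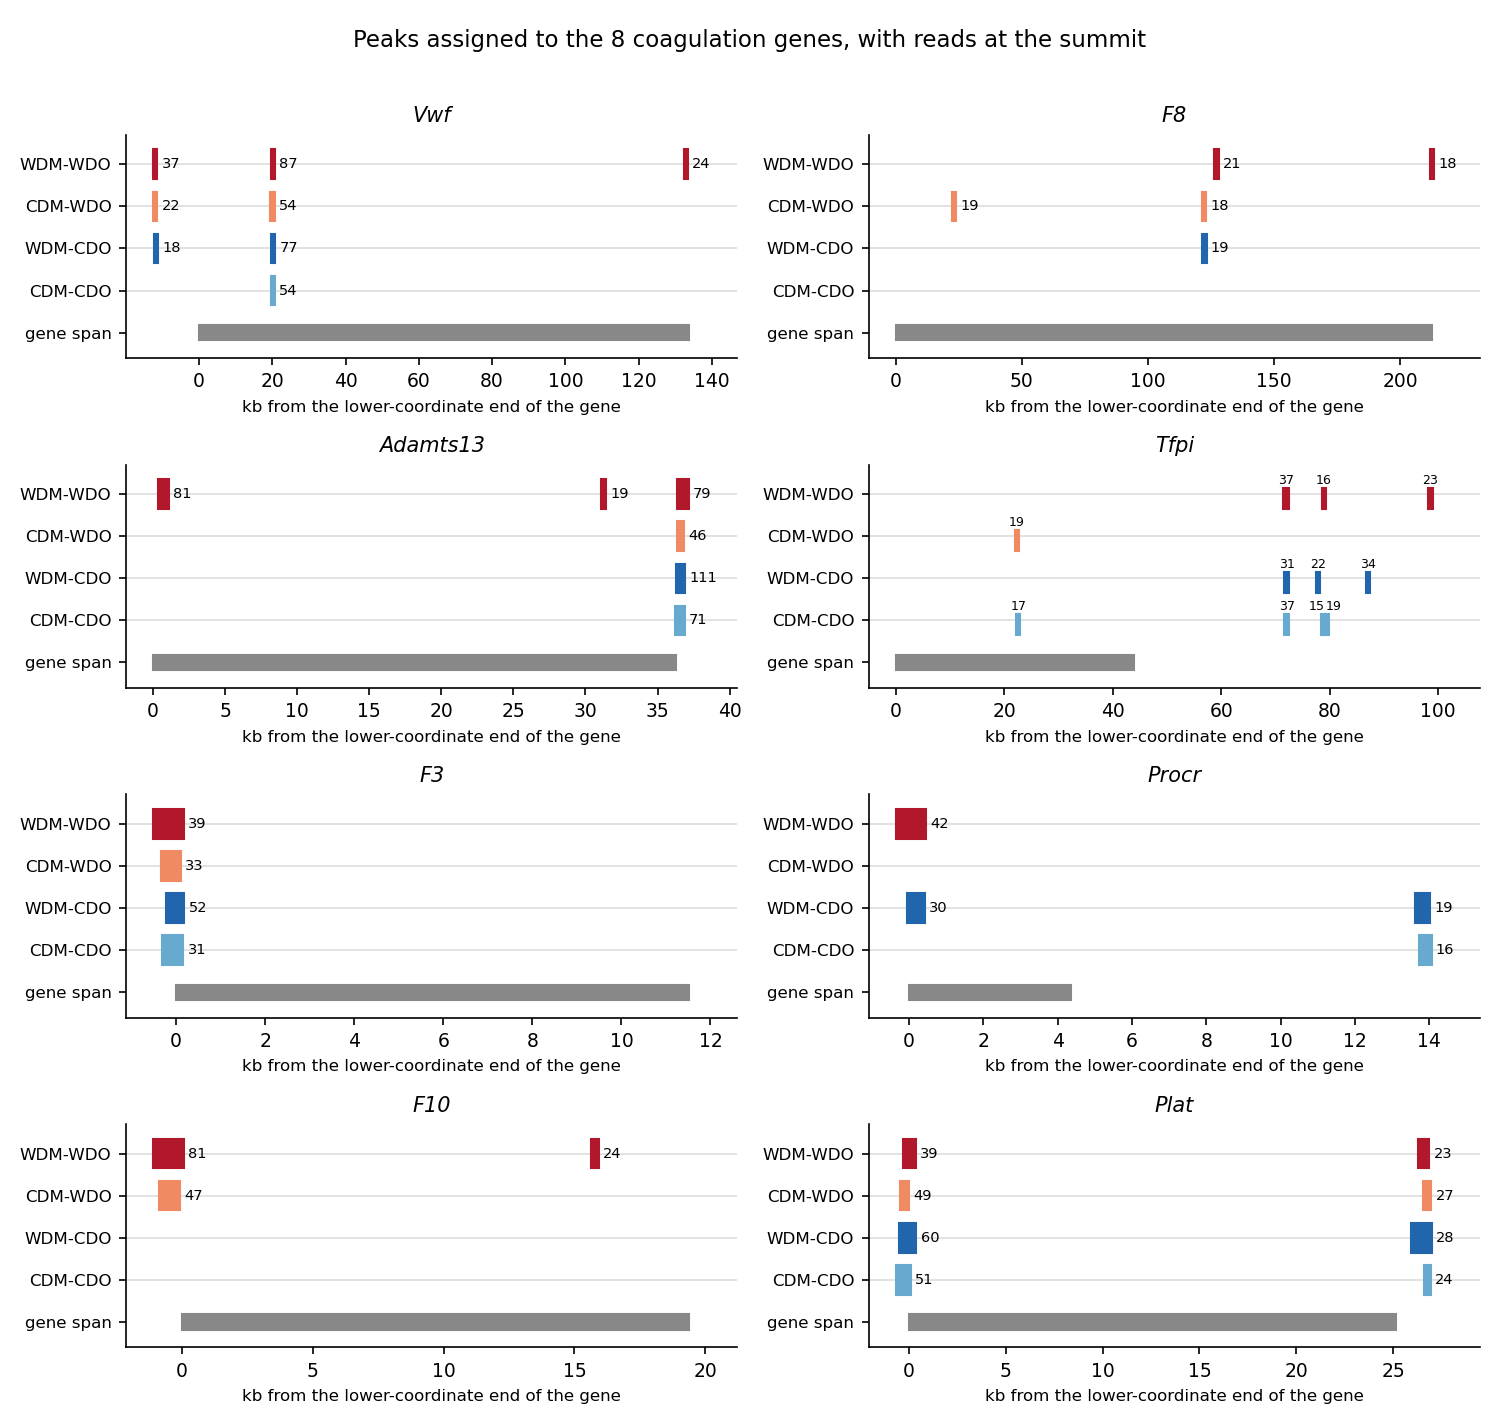
Peaks assigned to each gene, 1 row per peak list, against distance in kb from the lower-coordinate end of the gene; the grey bar is the gene span, numbers are reads at the summit, and narrow peaks are drawn wider than scale to stay visible. F3 and Plat had peaks in the same regions in every list, while the Adamts13 peak near the gene start was in WDM-WDO alone and the F10 peak in both WDO lists.

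Vwf, which spans chromosome 6 from 125552948 to 125686679, had its main site deep inside the gene in every list. This region (125572420 to 125573779) had its summit between 20089 and 20438 bp from the lower-coordinate end. It held 87 reads in WDM-WDO, 54 in CDM-WDO, 77 in WDM-CDO and 54 in CDM-CDO. The 2 lists of WD mothers were the higher ones, but after scaling WDM-WDO was 1.18 times CDM-WDO and WDM-CDO was 0.957 times CDM-CDO, both between the 5% and 95% points of the 10351 regions present in all lists. Against WDM-CDO, the WDM-WDO pileup of 87 reads had an exact Poisson interval of 69.7 to 107 (95%, counting error only), above the 61.0 reads expected there. That interval leaves out the counting error of the 77 WDM-CDO reads from which the 61.0 were scaled. The ratio of 1.47 was at or above that of 82.8% of these regions.

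A site 11740 bp or more beyond the lower-coordinate end of Vwf (125540368 to 125541208) was called in 3 lists. It held 37 reads in WDM-WDO, 22 in CDM-WDO and 18 in WDM-CDO, with −log10 q of 8.57, 3.56 and 2.25. No peak was called there in CDM-CDO. From WDM-CDO, 13 reads would be expected in CDM-CDO, where a call would have needed 15, so that difference was not detectable at this depth. From CDM-WDO, 24.8 would be expected and 16 needed. The third site, near the upper-coordinate end (125685266 to 125685598), was called in WDM-WDO alone with 24 reads; 18.2 were expected in CDM-WDO and 18 needed, and 28.9 in WDM-CDO and 20 needed.

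Adamts13 (chromosome 2, 26973361 to 27009625) had the strongest peak of any of the 8 genes that was confined to 1 list. In WDM-WDO 81 reads stood at 26973717 to 26974444, with a summit 723 bp past the gene start and a −log10 q of 33.5. No other list had a peak there or within 3000 bp. By the scaling, 58.6 reads would be expected in CDM-WDO, where 23 were needed for a call, and 103 in WDM-CDO, where 29 were needed. The stretch before the start printed above lies outside this peak, which also falls in the span of the long noncoding RNA gene Gm36649. A weaker peak of 19 reads lay further inside the gene in WDM-WDO alone (27004445 to 27004777). There 14.6 reads were expected in CDM-WDO and 17 needed, and 22.4 were expected in WDM-CDO and 18 needed.

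The remaining Adamts13 region was present in every list and belongs as much to the next gene. It covered 27009591 to 27010534, with 79 reads in WDM-WDO, 46 in CDM-WDO, 111 in WDM-CDO and 71 in CDM-CDO. All 4 summits lay beyond the end of Adamts13, inside the span of Cacfd1. The 2 CDO peaks reached back over the last bases of Adamts13 and the 2 WDO peaks stopped 92 and 112 bp short of it, so the rule alone would have counted this site in the CDO lists and not in the WDO lists.

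**Figure D2:**
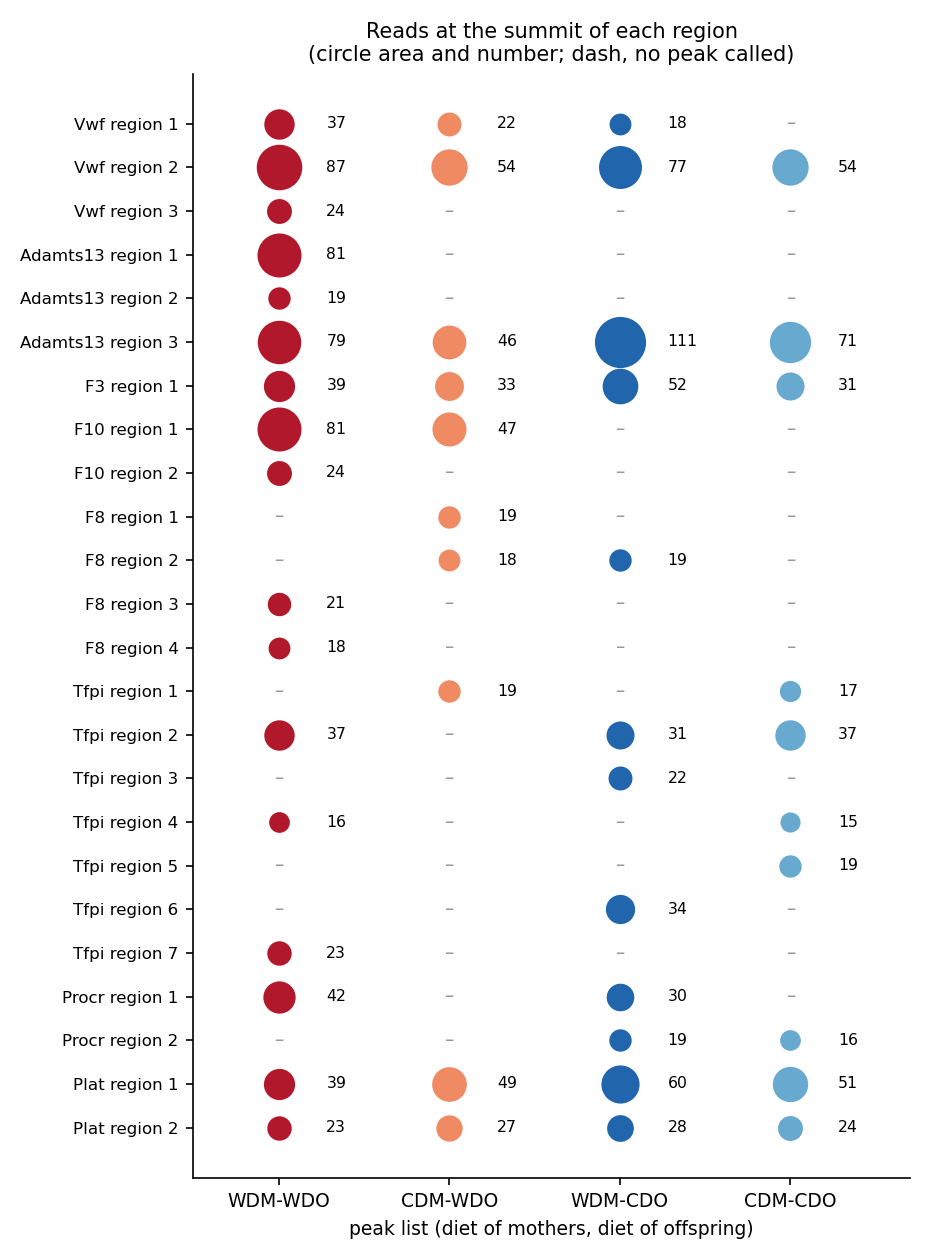
Reads at the summit (circle area and number) of each of the 24 regions in the 4 peak lists, with regions of a gene numbered from its lower coordinate and a dash where no peak was called. The region present in 1 list with the most reads is Adamts13 region 1, at 81 in WDM-WDO.

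F3, the gene of tissue factor (chromosome 3, 121723537 to 121735052), had a single region and it lay across the gene start in every list. It held 39 reads in WDM-WDO, 33 in CDM-WDO, 52 in WDM-CDO and 31 in CDM-CDO. The WDM-CDO peak was the strongest, with a −log10 q of 18.7 against 6.25 in CDM-CDO, though its 52 reads had an interval of 38.8 to 68.2 that held the 45.3 expected from CDM-CDO. Under the other comparisons the pileup likewise lay within counting error of the expected one. Summits moved over 202 bp, between 109 bp before and 93 bp after the start; the median spread of all regions present in the 4 lists was 124 bp. Of the starts printed above, that of F3 had the most CpG dinucleotides, more than 87.3% of promoters held.

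F10, the gene of factor X (chromosome 8, 13037308 to 13056676), had a peak before its start in both WDO lists and in neither CDO list. The peak held 81 reads in WDM-WDO (−log10 q of 23.1) and 47 reads in CDM-WDO (7.5). Its summits lay at −616 and −364 bp from the gene start. The WDM-WDO peak would be expected at 103 reads in WDM-CDO, where 40 were needed, and the CDM-WDO peak at 54.9 reads in CDM-CDO, where 33 were needed. The region lies mostly in the gap between F10 and F7, the gene of factor VII, whose span ends 404 bp away. Of all 48003 regions, 715 (1.49%) were present in these 2 lists and in no other. WDM-WDO alone had a second F10 peak of 24 reads inside the gene (13052952 to 13053237), where 18.2 reads were expected in CDM-WDO and 21 needed, and 28.9 in WDM-CDO and 25 needed.

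WDM-WDO, the list with the Adamts13 peak and the stronger F10 peak, also had the most peaks at markers of macrophages and of neutrophils, while CDM-WDO, which had the F10 peak too, had the fewest at macrophage markers. Macrophage and monocyte markers had 24 peaks in WDM-WDO, 8 in CDM-WDO, 11 in WDM-CDO and, in CDM-CDO, 10; all 10 genes had at least 1 peak in WDM-WDO. Neutrophil markers had a peak at 4, 1, 0 and 0 of 8 gene starts in the same lists, and Cxcr2 had none in any. Platelet and megakaryocyte markers had 4, 2, 4 and 3 peaks, and Ppbp, Tubb1 and Gp1bb had none in any list. The part of these cells in the F10 and Adamts13 peaks was not tested.

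F8, the gene of factor VIII (chromosome X, 75170344 to 75382738), had weak sites that few lists shared. Its 4 regions held 18 to 21 reads, with −log10 q of 2.32 to 3.83. WDM-WDO had 2 of them and CDM-WDO 2, WDM-CDO had 1 and CDM-CDO none. The only region in more than 1 list (75291732 to 75292230) held 18 reads in CDM-WDO and 19 in WDM-CDO. For none of the 4 did the reads expected in a list without the call exceed 1.67 times the number needed. The region closest to the start (75381993 to 75382335, WDM-WDO alone) had its summit at −2206 bp from it, still inside the annotated span, and lay 64 bp from the neighbouring gene Fundc2.

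Tfpi, whose protein blocks activated factor X and the tissue factor complex (chromosome 2, 84432855 to 84476775), had the most regions, 7, and no peak at either of its 2 annotated gene starts. Its main site lay upstream, 27385 bp or more from the gene (84504160 to 84505385), in the span of the noncoding gene Gm13710. It held 37 reads in WDM-WDO, 31 in WDM-CDO, and in CDM-CDO again 37, with −log10 q of 14.6, 11.1 and 17.7. CDM-WDO alone lacked it, where 27.4 reads were expected from WDM-WDO and 32.1 from CDM-CDO, against 15 needed. From the 31 reads of WDM-CDO, where the scaling ratio to CDM-WDO was 0.545, fewer would be expected than from either. Summits in the 3 lists lay within 28 bp of each other. CDM-WDO was also the shortest list and had the fewest peaks at markers of macrophages (8), T and B cells (5), platelets (2) and smooth muscle (2). It did not have the fewest at endothelial markers (26, against 17 in WDM-WDO and 15 in CDM-CDO). Nor did it at fibroblast (7, against 4 in CDM-CDO) or neutrophil markers (2, against 1 in CDM-CDO). The part of these cells in the missing Tfpi peak was not tested.

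The other 6 Tfpi sites held 15 to 34 reads, and none was called in more than 2 lists. A site inside the gene (84454855 to 84455377) was called in the 2 lists of CD mothers, with 19 reads in CDM-WDO and 17 in CDM-CDO. It is 1 of 234 regions (0.487%) present in those lists and no other; 25.1 reads were expected in WDM-WDO, where 17 were needed, and 24.0 in WDM-CDO, where 15 were needed. Of the 5 others, all upstream, WDM-CDO alone had peaks of 22 and 34 reads, WDM-WDO alone 1 of 23 and CDM-CDO alone 1 of 19, and a peak of 16 reads in WDM-WDO overlapped 1 of 15 in CDM-CDO. The farthest (84531035 to 84531614) lay 54260 bp from Tfpi and 55482 bp from Ctnnd1.

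Procr, the endothelial receptor that presents protein C for activation (chromosome 2, 155751125 to 155755478), had a peak across its start in the 2 lists of WD mothers and in neither list of CD mothers. The region (155750762 to 155751592) held 42 reads in WDM-WDO and 30 in WDM-CDO, with −log10 q of 9.63 and 5.98 and summits at −51 and 70 bp from the start. Peaks present in those lists and no other made up 1691 of 48003 regions (3.52%). In CDM-WDO 30.9 reads would be expected and 21 needed, and in CDM-CDO 20.9 expected and 17 needed. The margin is small, at 1.47 and 1.23 times the number needed. A second site, 9272 bp or more beyond the gene, was called in both CDO lists and neither WDO list, with 19 reads in WDM-CDO, against 16 in CDM-CDO; in the WDO lists the expected reads, 16.4 in WDM-WDO and 14.7 in CDM-WDO, were below the 17 and 16 needed.

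Plat, the gene of tissue plasminogen activator, which turns plasminogen into the clot-dissolving plasmin (chromosome 8, 22757722 to 22782848), had a pair of regions with a peak in every list. That at the lower-coordinate end (22757039 to 22758115) held 39 reads in WDM-WDO, 49 in CDM-WDO, 60 in WDM-CDO and 51 in CDM-CDO. That beyond the upper-coordinate end (22783661 to 22784701) held 23, 27, 28 and 24 reads in the same lists. WDM-WDO had the fewest reads at both sites although reads at strong regions were 1.41 times as many there as in CDM-WDO. Against CDM-WDO, the scaled ratio was 0.536 at the first site and 0.557 at the second, values that 2.14% and 2.43% of the regions present in all lists reached or fell below. At the first, 67.5 reads were expected and the 39 found had an interval of 27.7 to 53.3; at the second, 36.4 were expected and the 23 found had an interval of 14.6 to 34.5. In WDM-CDO against CDM-CDO both ratios were below 1 too, at 0.777 and 0.771, but there the expected reads lay within the intervals. Against WDM-CDO, WDM-WDO had ratios of 0.787 and 0.982, with the 47.9 and 23.3 reads expected inside the intervals, and CDM-WDO against CDM-CDO had 1.14 and 1.35, also within counting error. The low values at Plat were thus outside the interval in 1 of the 4 comparisons. These intervals hold the counting error of the first list only. The expected 67.5 and 36.4 reads were scaled from 49 and 27 reads in CDM-WDO, whose own error was left out. Those 27 reads had an interval of 17.8 to 39.3. Whether either site lies outside the error of both counts was not tested. Endothelial marker genes had 17 peaks in WDM-WDO, 26 in CDM-WDO, 38 in WDM-CDO and 15 in CDM-CDO. These are raw counts from lists of unequal length. The part of endothelial cells in the Plat values was not tested. The summits of the second site spread over 743 bp, against a median of 124 bp for all regions present in the 4 lists. The CDM-WDO summit, at 22784652, lay outside the WDM-WDO peak (22784029 to 22784589). The ratio of 0.557 thus compares pileups at different positions.

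**Figure D3:**
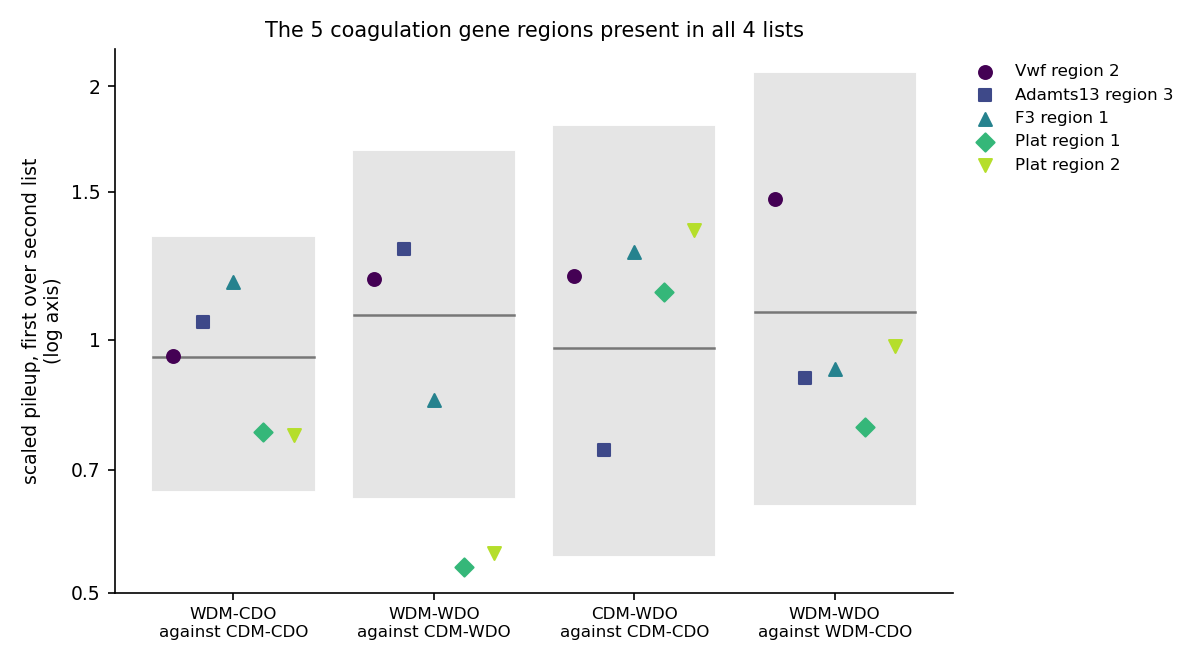
Reads above background in the first list of each comparison divided by those expected from the second, on a log axis, for the 5 coagulation gene regions present in all 4 lists; grey boxes run from the 5% to the 95% point of all 10351 such regions and the line is their median. Both Plat regions lie below the box in WDM-WDO against CDM-WDO, at 0.536 and 0.557.

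Across the 8 genes, the diet of the mothers was set first against offspring kept on CD. In WDM-CDO, 5 of the 15 regions found in either list were without a counterpart in CDM-CDO (33.3%, Wilson 95% interval for counting error only 15.2 to 58.3%), against 34.3% of all 33525 regions. The 5 were the Procr start, the site beyond Vwf, an F8 site and 2 upstream of Tfpi. CDM-CDO alone had 3 of 15 (20%, 7.05 to 45.2%), all in or near Tfpi, against 15.9% of all regions. Both shares were near those of all regions.

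Among offspring on WD, WDM-WDO alone had 10 of 20 regions (50%, 29.9 to 70.1%), against 42.2% of all 32616. They included the starts of Adamts13 and Procr and the main upstream site of Tfpi. CDM-WDO alone had 3 of 20 (15.0%, 5.24 to 36.0%), 2 at F8 and 1 at Tfpi, against 20.3% of all regions. The intervals again held the shares of all regions.

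The diet of the offspring was compared within the 2 groups of mothers. CDM-WDO alone had 4 of 14 regions (28.6%, 11.7 to 54.6%) against 25.6% of all 29602, and CDM-CDO alone had 4 of 14 against 36.4%. With WD mothers, WDM-WDO alone had 9 of 21 (42.9%, 24.5 to 63.5%) against 26.0% of all 38106, while WDM-CDO alone had 4 of 21 (19%, 7.67 to 40.0%) against 31.8%. The 9 lay at Vwf, Adamts13, F10, F8 and Tfpi. No interval left out the share of all regions. These comparisons share lists with the ones above and with each other.

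**Figure D4:**
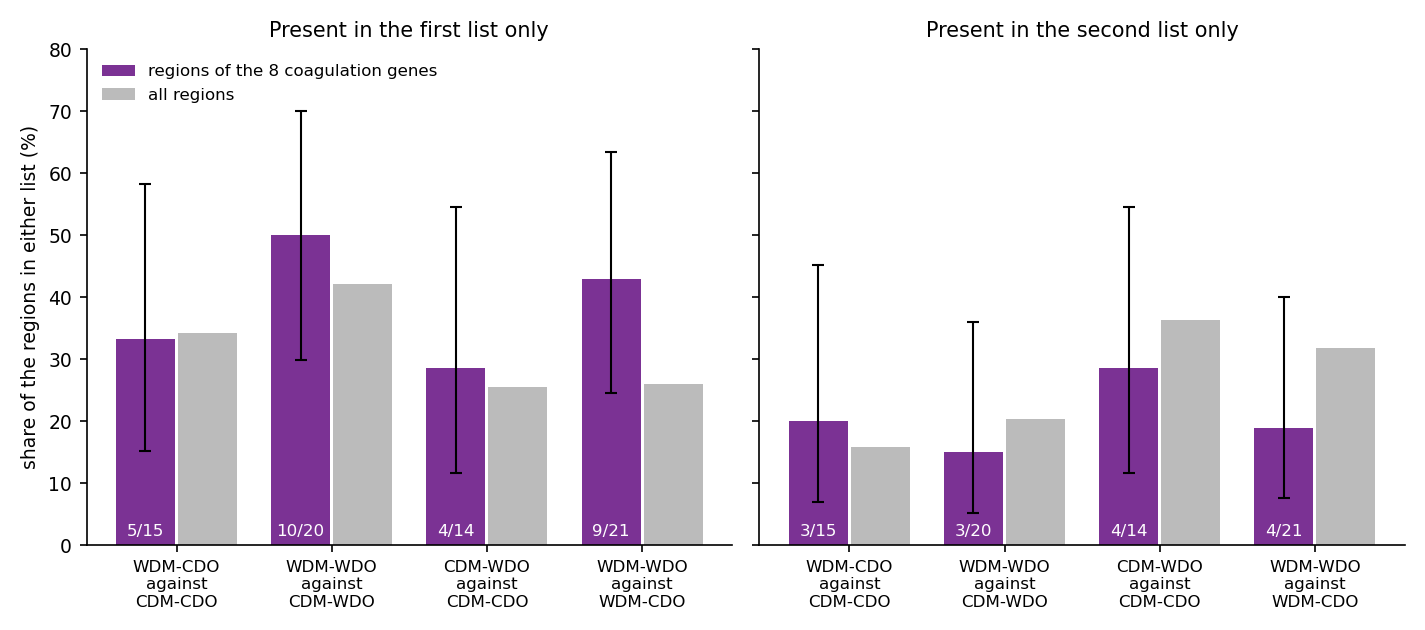
Share of regions present in the first list only (left) and in the second list only (right) of each comparison, for the 8 coagulation genes (purple, with Wilson 95% intervals and counts) and for all regions (grey). Every interval reaches the grey bar beside it.

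Counted by list, the 8 genes had peaks at 17 regions in WDM-WDO, 10 in CDM-WDO, 12 in WDM-CDO and 10 in CDM-CDO. Limited to the 18962 strongest peaks of each list, WDM-WDO had 9 and CDM-WDO 10, and 3 of 11 regions, against 21.5% of all regions, were in WDM-WDO and not in WDM-CDO. WDM-WDO alone held 7 of the 24 regions (29.2%), against 17.7% of all regions, and 5 of 24 (20.8%) were in every list, against 21.6%. A peak within 1 kb of the gene start (of either gene end for Vwf and Plat) was present for 5 of 8 genes in WDM-WDO (62.5%, 30.6 to 86.3%), against 48.8% of all 21631 genes. In CDM-WDO it was 3 of 8, against 41.4%, in WDM-CDO 3 of 8, against 52.5%, and in CDM-CDO 2 of 8, against 49.4%. F3 and Plat made up the 2 present in every list. Among all promoters, peaks followed CpG content: in WDM-WDO 70.6% of the third with most CpG lay under a peak and 7.90% of the third with fewest, which held 0 to 6 and so includes those of F10, Adamts13, F8 and Tfpi. Of these, that of F10 lay under a peak, in both WDO lists.

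Of 51 other coagulation genes, 22 had a peak at a gene start in WDM-WDO, 15 in CDM-WDO, 23 in WDM-CDO and 20 in CDM-CDO. Clotting factor genes other than F3, F8 and F10, which are mostly expressed in liver, had one at 2, 0, 1 and 0 of 14, and 9 of the 14 had no peak in any list. In WDM-WDO against CDM-WDO, 7 of the 51 genes (13.7%) had a start peak in WDM-WDO that CDM-WDO lacked, against 9.53% of all genes, and 0 the reverse, against 2.11%. The strongest were Vkorc1, an enzyme of the vitamin K cycle (−log10 q of 18.5), the gene of the clot crosslinking factor F13a1 (7.74), the anticoagulant cofactor gene Pros1 (6.52) and the platelet receptor gene Gp5 (4.01). Of these, Vkorc1, Pros1 and Gp5 had one in CDM-CDO that CDM-WDO lacked, as did the protease receptor gene F2rl1, among 6 in all (11.8%, against 9.80% of all genes). Plaur, the urokinase receptor gene, was the 1 with the opposite pattern (1.96%, against 1.84%). In WDM-CDO against CDM-CDO, 3 (5.88%, against 4.90% of all genes) had one in WDM-CDO and not in CDM-CDO, namely Plaur (3.63), the cofactor gene F5 (3.09) and the platelet receptor gene Gp9 (2.92), and 0 the reverse, against 1.79%. In WDM-WDO against WDM-CDO, F13a1 and F7 (2.75) had one in WDM-WDO and not in WDM-CDO (3.92%, against 2.61% of all genes), and Tfpi2 (6.82), F2rl2 (6.71) and F5 the reverse (5.88%, against 6.25%). These shares were near those of all genes. F7, the neighbour of F10, had a start peak in WDM-WDO alone, and F13a1 had 7 peaks in WDM-WDO, 2 in CDM-WDO, 3 in WDM-CDO and 0 in CDM-CDO.

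**Figure D5:**
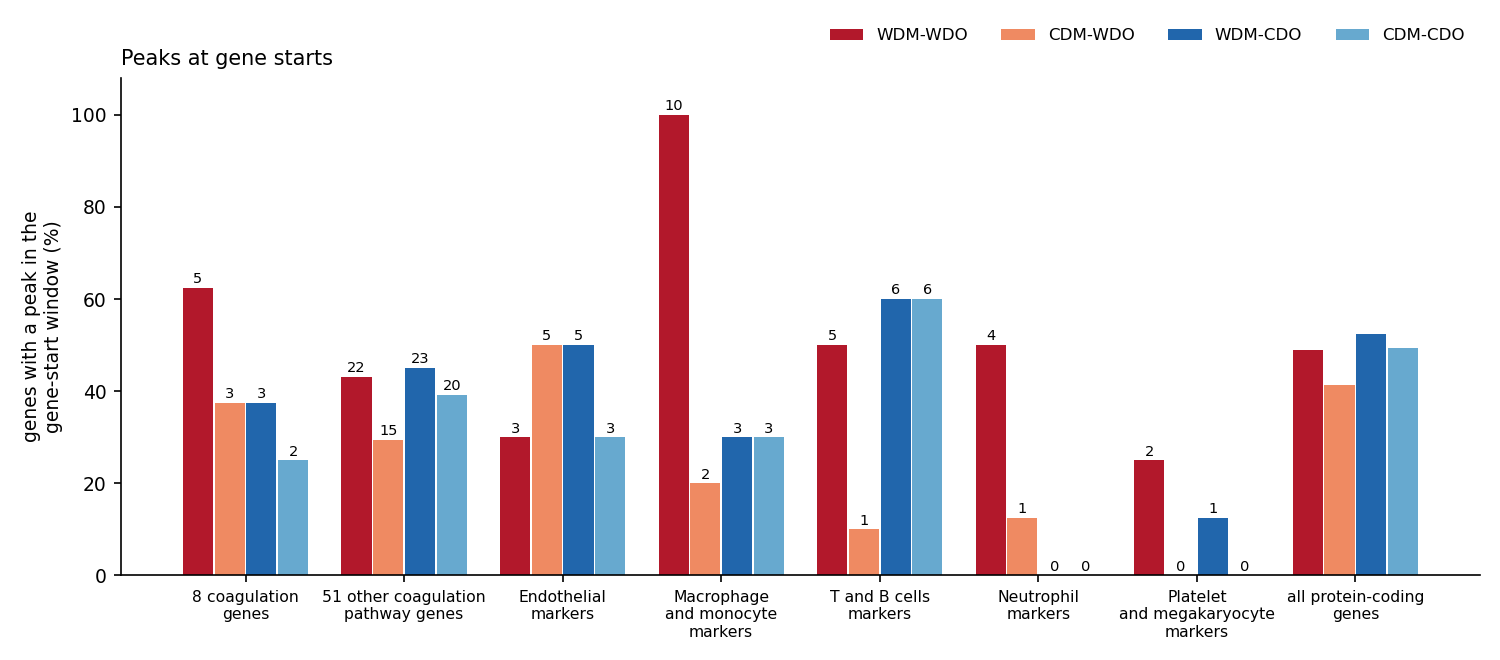
Share of genes with a peak in the gene-start window in each list, with the number of genes above the bars, for the 8 coagulation genes, the 51 other pathway genes, 5 sets of cell type markers and all protein-coding genes. The 8 genes run from 5 in WDM-WDO to 2 in CDM-CDO, and macrophage and monocyte markers reach 10 of 10 in WDM-WDO.

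Likeness to Vwf was measured over the other pathway genes by the summed difference in the number of peaks per list, where Vwf had 3 in WDM-WDO, 2 in CDM-WDO, 2 in WDM-CDO and 1 in CDM-CDO. Among those with a small summed difference over the 4 lists were Itga2b, a platelet integrin gene, with 2 peaks in every list, and Mcfd2, which helps export factor VIII, with 3, 1, 2 and 2. Both had a summed difference of 2, as did Plaur.

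The rule's outer limit of 100 kb was not reached by any region. Inside the rule with the smallest margins were the Adamts13 site that also overlaps Cacfd1, at 0 bp, the F8 site next to Fundc2, at 64 bp, and the F10 start, at 404 bp from F7. Of the sites outside a gene span, the second Procr site was 884 bp closer to Procr than to Mmp24, and the farthest Tfpi site 1222 bp closer to Tfpi than to Ctnnd1. The nearest outside it was a peak at Calcrl, 7261 bp from Tfpi, present in WDM-WDO, WDM-CDO and CDM-CDO and not in CDM-WDO. Both F7 peaks, at 8512 and 10639 bp from F10, were in WDM-WDO alone.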

How the data were processed

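ATAC-seq of 8 samples in 4 groups of 2 was used; the 4 H3K27ac samples were not analysed here. Each group had 1 deposited peak list; pooling of its samples and any shift of reads to the transposase cut are not stated in the labels or files. Tools listed in the submitters' processing notes, with no settings, are MACS2 2.2.9.1, Bowtie2 2.4.5, Trim Galore 0.6.10, FastQC 0.12.1, deepTools 3.5.4 and SAMtools 1.13, and the build is GRCm38 (mm10). The fold enrichment of each peak, a ratio, and its −log10 p and −log10 q were used as the authors deposited them. The lowest −log10 q was 1.30 to 1.31 in the lists, and depth per sample is unknown.

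Summit pileups were the whole numbers that fitted both the fold and −log10 p under a Poisson background (relative tolerance 0.0001), found for 99.87 to 99.98% of peaks of a list and for every peak at the 8 genes. Peaks on chromosome Y were left out. Peaks of 4 lists overlapping by 1 bp were joined into regions. Genes were 21631 protein-coding genes of GRCm38.p6 in RefSeq; gene starts came from the RefSeq promoter table for 17274 of them, and both gene ends were used for the rest. Expected pileups used the median ratio of reads above background at the strongest 10% of regions present in all lists, and the number needed used the lowest −log10 p of the list at the scaled local background. Python 3.11.15, scipy 1.17.1 and statsmodels 0.14.6 were used, and the steps were tested on simulated data.

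All 8 genes are named. Other pathway genes were named when their start had a peak in 1 list of a comparison only, at most 4 per direction by −log10 q. Genes, lists of genes and motifs were chosen with earlier results of these data known. A planned assignment to gene starts served as an alternative. Neighbouring genes are named for their place. The result of 1 pathway gene is not reported here.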

Additional observations from a re-analysis of the deposited data

Results flagged for a closer look

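At 2 of the 24 regions the calls by mothers' diet ran in opposite directions under the 2 offspring diets; neither difference was tested. The F8 region at 75291732 to 75292230 was called in CDM-WDO (−log10 q of 2.66) and in WDM-CDO (3.34) and in no other list, as were 614 of all 48003 regions (1.28%). The Tfpi region at 84511235 to 84511630 was called in WDM-WDO (1.46) and CDM-CDO (1.96) and in no other list, as were 503 (1.05%). Both had 15 to 19 reads at their summits, close to the number a call needed. From WDM-CDO, 13.7 reads were expected at the F8 region in CDM-CDO, where 14 were needed. From WDM-WDO, 12.5 were expected at the Tfpi region in CDM-WDO, where 15 were needed. So 1 of the differences by mothers' diet at each region was not detectable at this depth. The opposite ones were expected above the number needed. From CDM-WDO, 23.7 reads were expected at the F8 region in WDM-WDO, with 16 needed. From CDM-CDO, 21.0 were expected at the Tfpi region in WDM-CDO, with 15 needed. These were scaled from 18 and 15 reads in lists that had the call, and counting error was left out. They do not show that the opposite differences were detectable.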

How the results depend on the processing

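Of 96 recomputed counts, 59 stayed within 1.5 times the reported one and 37 did not. All 8 counts with an overlap of 50% of the shorter peak, all 12 with the nearest gene start, all 4 with a window of 2 kb and all 12 without tied peaks (chosen after seeing the data) stayed within it. At 2 kb a peak at the gene start (at either gene end for Vwf and Plat) was present for 7, 3, 3 and 2 of the 8 genes in WDM-WDO, CDM-WDO, WDM-CDO and CDM-CDO, against 50.7, 43.1, 54.3 and 50.9% of all genes. Among the 7 was F8, by a peak of 18 reads. Vwf was also among them, by a peak of 24 reads near its upper-coordinate end, which need not be its start. With a −log10 q of at least 5, and at equal list length, the numbers were 5, 3, 3 and 2.

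Counts below are regions in the first list only and then in the second only, each with the share of all regions. For the 10 kb limit, that share was still taken over regions at any distance from a gene. Within 10 kb, WDM-CDO against CDM-CDO gave 2 and 1 of 9 (34.3 and 15.9%), CDM-CDO had 1 of 10 that CDM-WDO lacked (36.4%) and WDM-CDO 2 of 15 that WDM-WDO lacked (31.8%). With a −log10 q of at least 5, WDM-CDO against CDM-CDO gave 3 and 0 of 8 (24.1 and 5.86%), WDM-WDO against CDM-WDO 4 and 0 of 9 (40.9 and 4.99%), CDM-WDO against CDM-CDO 1 and 1 of 6 (9.59 and 35.8%) and WDM-WDO against WDM-CDO 3 and 2 of 11 (17.5 and 24.1%); regions per list fell to 9 in WDM-WDO, 5 in CDM-WDO and 5 in CDM-CDO. With 18962 peaks in every list, the same comparisons gave 3 and 3 of 11 (16.9 and 16.7%), 3 and 4 of 13 (27.6 and 27.8%), 4 and 2 of 12 (29.6 and 29.6%) and 3 and 2 of 11 (21.5 and 22.0%). WDM-WDO then had 9 regions and CDM-WDO 10, so the larger number in WDM-WDO did not hold. Limited to regions expected at 2 or more times the pileup needed at the genome background, they gave 0 and 0 of 15 (2.63 and 5.59%), 2 and 0 of 20 (7.63 and 3.66%), 1 and 1 of 14 (5.67 and 8.73%) and 2 and 0 of 21 (13 and 4.58%). With the number needed at the local background, as used for single sites (chosen after seeing the data), they gave 0 and 0 of 15 (0.164 and 0.820%), 1 and 0 of 20 (0.641 and 0.656%), 0 and 1 of 14 (0.885 and 1.87%) and 2 and 0 of 21 (2.61 and 0.984%), so the Procr start, and the F10 start in CDM-WDO against CDM-CDO, did not pass.

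No paired analysis was possible because each group had 1 peak list, and leaving out a replicate was not run for the same reason. Depth limits the sites of fewest reads.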
